A study of Mus musculus with 24 samples.

Results

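ENSMUST00000198477.2 is a ribosomal RNA reference of 1849 bases that took almost all reads of the rRNA class in small RNA libraries of mouse epididymosomes. It is 1 of 358 references in the rRNA tables and 1 of 115485 features in the 6 classes that the study searched in turn, and it was chosen by its measured share of the rRNA reads, 11988716 of 12343666 over all libraries (97.1%). That share is given here as a description, in a class where no other reference apart from the mitochondrial rRNAs exceeds 148 bases. Its reads were then followed as a share of the rRNA class and of all 6 classes (miRNA, tRNA, piRNA, rRNA, circRNA and lncRNA) over the groups, the sequencing lanes and the library numbers.

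Epididymosomes are vesicles that the epididymal epithelium sheds into the lumen, where they pass RNA and protein to maturing sperm. The small subunit of the cytoplasmic ribosome is built around a single long RNA, the 18S rRNA, and the large subunit holds the 28S, 5.8S and 5S rRNAs, while mitochondria make a pair of rRNAs of their own. Intact rRNA is far longer than the inserts of a small RNA library, so reads on an rRNA come from fragments of it, and fragments of rRNA are known as a regular component of the RNA of vesicles and sperm. Small nucleolar RNAs (snoRNAs) and the RNA of RNase MRP act on the rRNA precursor in the nucleolus, by guiding cleavage or chemical modification.

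All animals were male C57BL/6J mice, 7 to 8 weeks old, that carried an osmotic pump for 6 weeks. DBP mice received 2.5 mg/kg/day of dibutyl phthalate, DEHP mice 2.5 mg/kg/day of di(2-ethylhexyl) phthalate, Mixture mice 2.5 mg/kg/day of each, and Control mice the vehicle, 50% DMSO. The phthalates are diesters used as plasticisers that differ in their side chains, which are short and linear in DBP and longer and branched in DEHP. Per the labels there were 6 mice in each of the 4 groups, and a library stands for each mouse, with vesicles taken from the fluid of the cauda after the sperm had been pelleted. Lane 7 of the sequencer held libraries 4 to 6 of each group, and lane 6 held libraries 1 to 3.

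The libraries held 7944772 to 14704747 reads in the 6 classes, and no pair of libraries held identical counts. Reads on short lists of miRNAs of other cells were few, which does not by itself show that those cells were absent. The 3 erythrocyte miRNAs together had 0 to 3 reads a library and 2 of the 3 had none in any library, the 5 leukocyte miRNAs had 1 to 18 reads, the 3 sperm and testis miRNAs had 0 to 11 reads, and the 4 muscle miRNAs summed to 4.98 to 34.8 RPM, reads per 1000000 of the 6 classes. Muscle miRNAs ran from 6.24 to 33.9 RPM in DBP, 6.45 to 34.8 RPM in DEHP, 4.98 to 28.1 RPM in Mixture and 10.4 to 28.2 RPM in Control libraries, and their part in the results below was not tested.

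The tables give the transcript under version 2 of its identifier. GENCODE M21 (GRCm38) lists version 1 with the same length, 1849 bases, as the rRNA gene CT010467.1, a single exon on the minus strand at chr17:39846353-39848201. RefSeq places Rn18s-rs5, an 18S rRNA related sequence with the biotype pseudogene, on the same stretch from 39846354 to 39848202. Read on the plus strand, the M21 sequence begins and ends as printed here, to show which rRNA the reads belong to. The letters are those of version 1, and those of version 2 were not used here.

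first 120 bases, plus strand, chr17:39846353-39846472: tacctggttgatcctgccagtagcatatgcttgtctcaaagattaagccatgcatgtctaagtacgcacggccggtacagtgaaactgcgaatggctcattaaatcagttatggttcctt

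last 120 bases, plus strand, chr17:39848082-39848201: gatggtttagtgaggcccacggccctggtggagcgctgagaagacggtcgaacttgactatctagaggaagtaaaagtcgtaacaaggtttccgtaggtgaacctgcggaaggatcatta

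These are the known ends of the mature 18S rRNA, so the strand annotated in M21 holds its reverse complement. The GC content of the 1849 bases was 55.4%. The sources used here do not give the counting strand, so reads of the rRNA and of its opposite strand cannot be told apart. In M21 the lincRNAs Gm42418, on the plus strand, and AY036118, on the minus strand, share 1244 and 923 bases with the transcript at this locus. Neither M21 transcript is among the references of the rRNA, lncRNA and otherRNA tables. RefSeq lists Gm42418 as a synonym of Rn18s-rs5. Among the references of those tables, 5 others share a run of 18 or more bases with ENSMUST00000198477.2 on either strand. The longest run is of 21 bases, and these 5 held 1187 reads in all.

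The hairpin listed as mmu-mir-3535, which lies inside the nucleolin gene Ncl and overlaps a snoRNA, Gm24148, carries the run of 21 bases. It is printed from RefSeq (GRCm38.p6), minus strand of chr1:86351981-86352127, beside the stretch of the plus strand of the transcript that it can pair with (bases 1779 to 1799 from its first base, chr17:39848131-39848151). Capitals mark the 21 bases in each, and these are exact complements.

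mmu-mir-3535 hairpin: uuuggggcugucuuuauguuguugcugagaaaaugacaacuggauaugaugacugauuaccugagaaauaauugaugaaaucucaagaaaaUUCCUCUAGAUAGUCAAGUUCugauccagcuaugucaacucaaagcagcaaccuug

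transcript, plus strand: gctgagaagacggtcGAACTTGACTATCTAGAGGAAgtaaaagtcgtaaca

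The hairpin took 10.9% of the reads of the miRNA class, 6263 ± 1934 RPM (SD, n = 24). It was picked for this shared run after its reads had been seen. miRNA references are searched before rRNA in the study's order, and whether any of its reads came from the rRNA was not tested.

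The transcript was among the most abundant features of every library. It had 318280 reads in the DEHP 6 library, the fewest, and 652672 in the Control 2 library, the most. By reads it ranked 3 in 13 libraries and 4 in 11 libraries. tRNA-Arg-CCG-3-1 and piR-mmu-30344366 stood above it in all 24 libraries and piR-mmu-5890133 in 11. The counting error of its reads was at most 0.177% of the value and its share of the 6 classes varied by 17.2% between the 24 libraries (coefficient of variation). Whether the share moves with library depth was not tested. The 95% exact Clopper-Pearson intervals, which cover counting error only, were at most 0.0298 percentage points wide for the share of the 6 classes and 0.164 for the share of the rRNA class.

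Per unit of length it was set beside the 4 other rRNA references with the largest shares, as a description, since it was chosen for its abundance. It had a median of 22830 reads per kilobase and 1000000 reads (RPKM), with 17073 RPKM in the lowest library and 32871 RPKM in the highest. mt-Rnr2, the large-subunit rRNA of mitochondria, had a median of 234.1 RPKM (60.8 to 1433). mt-Rnr1, the small-subunit rRNA of mitochondria, had a median of 93.4 RPKM (22.5 to 1144). A 5S rRNA reference, n-R5s161, had 581.9 RPKM (262.7 to 1077), and the 5.8S rRNA reference n-R5-8s1 had 216.8 RPKM (71.8 to 1455). The lowest library of the transcript lay above the highest library of each of these 4. Over the mean of the libraries its RPKM was 53.2-fold that of mt-Rnr2, 94.8-fold that of mt-Rnr1, 39.5-fold that of n-R5s161 and 55.3-fold that of n-R5-8s1. The class holds several 5S references, so the fold over n-R5s161 is over 1 reference and not over all 5S rRNA. The 358 references include 3 longer than 500 bases, namely the transcript and both mitochondrial rRNAs, and no other exceeds 148 bases. None of the 358 is thus a full-length 28S rRNA, and 28S rRNA was not analysed here. The share of the class and the folds above therefore do not show whether the transcript outweighs 28S rRNA in these vesicles. Of the 358, 325 had at least 1 read and 33 had none.

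**Figure D1:**
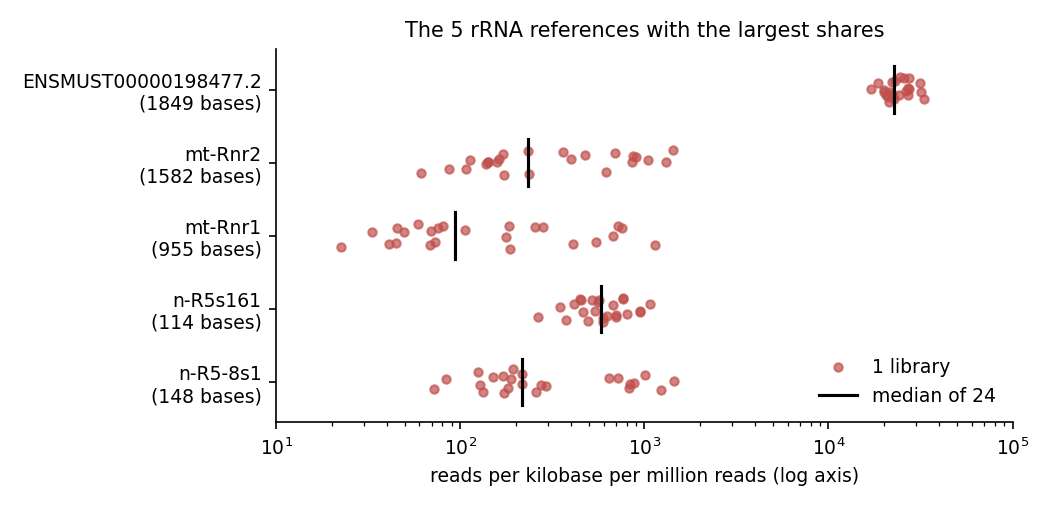
Reads per kilobase and 1000000 reads (x, log axis) of the 5 rRNA references with the largest mean shares, 1 point per library and a line at the median of 24. The transcript lies between 17073 and 32871 RPKM in all libraries, and the highest value among the other 4 references is 1455 RPKM.

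As a share of the 6 classes, the transcript took 4.22, 5.85, 5.02, 3.93, 3.45 and 3.16% of the reads in DBP libraries 1 to 6. In DEHP libraries 1 to 6 it took 4.11, 4.11, 3.81, 4.85, 4.22 and 4.01%. In Mixture libraries 1 to 6 it took 3.87, 4.12, 5.79, 4.47, 3.71 and 4.52%, and in Control libraries 1 to 6 it took 5.08, 5.09, 6.08, 4.77, 5.00 and 3.71%. The highest values were those of Control 3, DBP 2 and Mixture 3, the lowest was that of DBP 6, and each exposed group overlapped the Control group. DEHP had the narrowest spread, with an SD of 0.354 percentage points, against 1.01 in DBP, 0.745 in Mixture and 0.759 in Control.

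The mean share was lower in each exposed group than in Control, by an amount that the test did not separate from the spread between libraries. It was 4.27% ± 1.01 in DBP and 4.96% ± 0.759 in Control (SD, n = 6 each), a difference of -0.685 percentage points with a 95% interval of -1.55 to 0.142 (exact permutation within lane, two-sided p = 0.085, adjusted p = 0.51 over 12 share tests). In DBP, 2 of 6 libraries lay above the Control mean. In DEHP it was 4.18% ± 0.354, against 4.96% ± 0.759 in Control, a difference of -0.773 (interval -1.52 to 0.0783, exact p = 0.065, adjusted p = 0.51), and 0 of 6 libraries lay above the Control mean. In Mixture it was 4.41% ± 0.745, against the same Control mean, a difference of -0.541 (interval -1.48 to 0.402, exact p = 0.215, adjusted p = 0.86), with 1 of 6 libraries above it. These 3 comparisons share their Control libraries. A share says how the reads of a library divide, so a lower share can come from less of this RNA or from more of other RNAs, and in vesicles as in bulk tissue fewer sources and less RNA per source cannot be told apart.

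The exposed groups were also compared with each other, in 3 of the 6 pairs tested. Each agent given was at 2.5 mg/kg/day by mass, over the matched time of 6 weeks. Mixture mice received both agents, so their total phthalate dose was above that of DBP or DEHP mice. DBP exceeded DEHP by 0.0878 percentage points (interval -0.845 to 1.02, exact p = 0.82, adjusted p = 0.975). Mixture exceeded DBP by 0.144 points (interval -0.868 to 1.16, exact p = 0.75, adjusted p = 0.975) and DEHP by 0.232 points (interval -0.417 to 1.07, exact p = 0.61, adjusted p = 0.975). No pair passed, and the intervals reach about 1 percentage point in each direction for DBP against DEHP, so the compounds were shown neither to differ nor to act alike on this share.

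**Figure D2:**
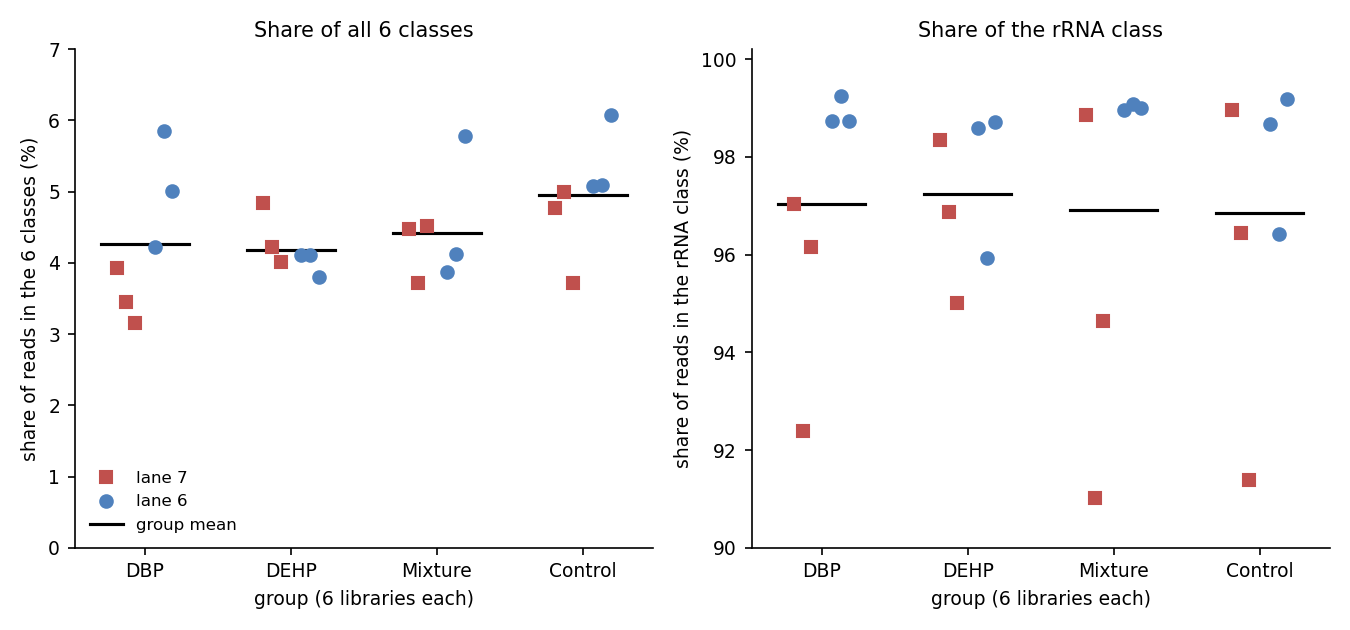
Share of reads on the transcript by group, as a share of the 6 classes (left, from 0) and of the rRNA class (right, axis from 90%), 1 point per library with squares for lane 7 and circles for lane 6 and a line at the group mean. On the left the means are 4.27, 4.18 and 4.41% in the exposed groups and 4.96% in Control. On the right the libraries below 95% are all squares.

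Within the rRNA class, the transcript took 98.7, 99.2, 98.7, 97.03, 92.4 and 96.2% in DBP libraries 1 to 6. It took 98.6, 95.9, 98.7, 98.4, 96.9 and 95.005% in DEHP libraries, 98.96, 99.1, 98.99, 98.8, 91.01 and 94.6% in Mixture libraries, and 98.7, 96.4, 99.2, 98.96, 96.4 and 91.4% in Control libraries. In 4 libraries it was under 95% and all 4 were numbered 5 or 6, while 13 libraries were over 98% and all 13 were numbered 1 to 4. The means were 97.04% ± 2.57 in DBP, 97.2% ± 1.55 in DEHP and 96.9% ± 3.37 in Mixture, against 96.8% ± 2.95 in Control (SD, n = 6 each). The differences from Control were 0.198, 0.395 and 0.0726 percentage points, far inside the spread between libraries (exact permutation p = 0.81, 0.805 and 0.94, adjusted p = 0.975 for each). Among the exposed pairs the differences were -0.198 for DBP against DEHP, -0.125 for Mixture against DBP and -0.323 for Mixture against DEHP (exact p = 0.885, 0.975 and 0.85, adjusted p = 0.975 for each).

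The reads of the rRNA class outside the transcript were mostly mitochondrial in the libraries where its share was low. mt-Rnr1 and mt-Rnr2 together took 7.79% of the class in Mixture 5 and 4.23% in Mixture 6, 6.25% in DBP 5, and 7.36% in Control 6. In DBP 2, the library where the transcript had its highest share of the class, they took 0.2%. The rest of the class outside the transcript, mitochondrial and other together, differed 11.8-fold between the highest and the lowest library, and mitochondrial rRNA made up 26.1 to 88.1% of it. DEHP 2 and Control 2, with 3.59 and 3.14% mitochondrial rRNA, were the highest of the lane 6 libraries and lay above DEHP 5, DBP 6 and Control 5, which had 2.06, 2.25 and 2.64%. The 355 other references together took 0.292 to 1.59% of the class.

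**Figure D3:**
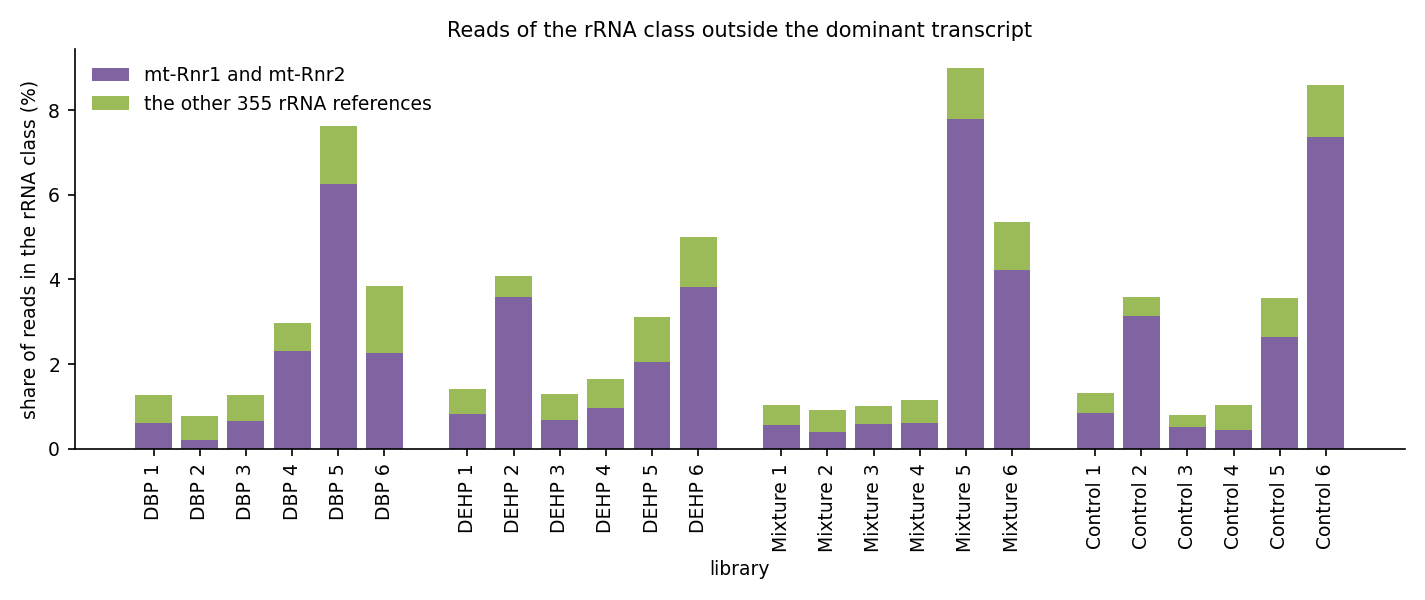
Reads of the rRNA class that are not on the transcript, as a percentage of the class (y, from 0) for each library (x), split into both mitochondrial rRNAs and the other 355 references. The tallest bars are those of Mixture 5, Control 6 and DBP 5, where mitochondrial rRNA takes 7.79, 7.36 and 6.25%.

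The level of the transcript was then tested in a model fitted across all features, on counts scaled by TMM, which sets each library to the bulk of its features (edgeR quasi-likelihood test, group and lane as terms). Of 7454 features tested, 0 passed an adjusted p of 0.05 in any of the 6 group comparisons (0%). At an unadjusted p under 0.05 there were 359 for DBP, 212 for DEHP and 196 for Mixture against Control. If no feature differed, a fraction of about 0.05 of the 7454 would be expected there, more than each of these counts. DESeq2 and limma voom also called 0. On this scale the transcript had 47910 ± 24775 counts per 1000000 (CPM) in DBP, 40654 ± 7855 CPM in DEHP and 44616 ± 9696 CPM in Mixture, against 50802 ± 13355 CPM in Control libraries (SD, n = 6 each). DBP 2, at 93327 CPM, was the highest library and DBP 6, at 25728 CPM, the lowest, so the DBP group covered the whole range on this scale. The TMM factor was 0.626 for DBP 2, the lowest of all libraries, and 1.23 for DBP 6. By share of the 6 classes, Control 3 was the highest, at 6.08%.

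The fitted log2 fold change of DBP over Control was -0.14 (SE 0.25, edgeR adjusted p = 0.984), with values from -0.37 without DBP 2 to -0.030 without Control 4 when 1 library was left out. It was -0.033 without DBP 6 and -0.049 without DBP 5. Within lanes it was -0.56 on lane 7 and 0.18 on lane 6. For DEHP over Control it was -0.30 (SE 0.25, edgeR adjusted p = 0.999), from -0.45 without DEHP 4 to -0.17 without Control 4. For Mixture over Control it was -0.19 (SE 0.25, edgeR adjusted p = 1.00), from -0.29 without Control 6 to -0.071 without Control 4. DBP over DEHP was 0.15 (95% interval -0.36 to 0.67), Mixture over DBP -0.05 (interval -0.56 to 0.46) and Mixture over DEHP 0.11 (interval -0.41 to 0.62). The median over all features lay between -0.02 and -0.01 for the 3 comparisons with Control. Scaled by plain library totals, which makes the test one of the RPM, the fold changes against Control were -0.22, -0.23 and -0.16 with an SE of 0.18, and the DBP value was then over 1.5 times its size under TMM.

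**Figure D4:**
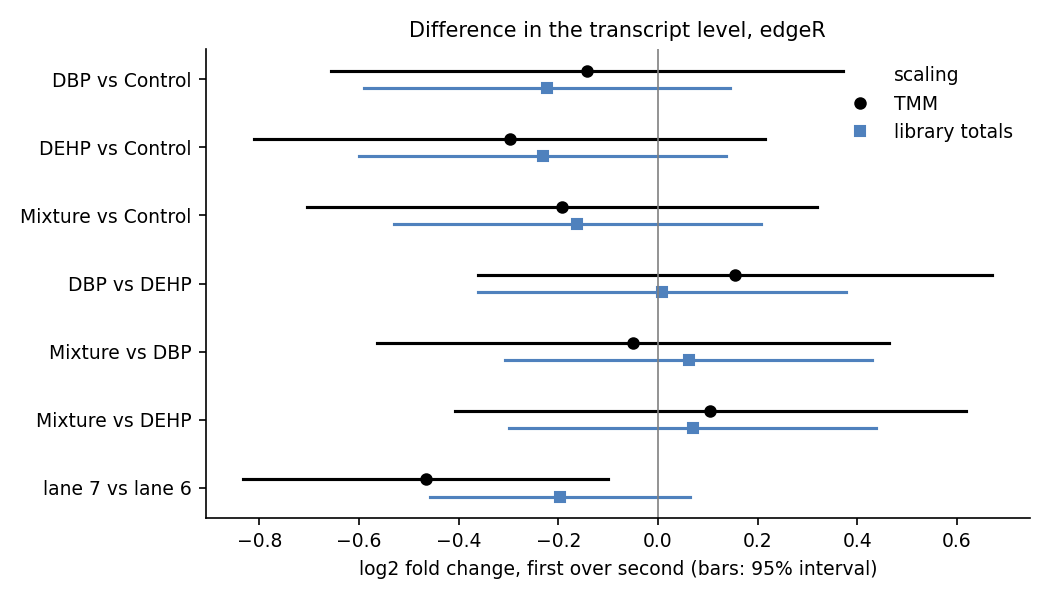
Log2 fold change of the transcript, first group over second (x), for the 6 group comparisons and for lane 7 over lane 6, with 95% intervals, under TMM (circles) and under plain library totals (squares). All intervals between groups include 0, and the interval for the lanes lies below 0 under TMM and includes 0 under library totals.

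Values were then compared between lanes. The share of the 6 classes averaged 4.15% ± 0.585 on lane 7 and 4.76% ± 0.825 on lane 6 (SD, n = 12 each), a difference of -0.612 percentage points (lane labels exchanged within group, 160000 arrangements, exact two-sided p = 0.0432, adjusted p = 0.0432 over 2 shares). It did not pass when 1 library was left out in 12 of 24 cases (Control 3 or 6, DBP 2, 3, 5 or 6, DEHP 1, 2, 5 or 6, Mixture 3 or 5), with differences of -0.614 to -0.463 points and exact adjusted p values of 0.0522 to 0.0995. The share of the rRNA class averaged 95.6% ± 2.77 on lane 7 and 98.4% ± 1.08 on lane 6, a difference of -2.84 points (exact p = 0.0047, adjusted p = 0.0094). Both tests were added after the values had been seen. The lane 7 libraries numbered 4 averaged 4.5% of the 6 classes and 98.3% of the rRNA class, 0.258 and 0.136 points below lane 6. For libraries 5 and 6 the differences from lane 6 were -0.79 and -4.197 points. The lower share of the rRNA class on lane 7 thus lay mainly in libraries 5 and 6. For the 6 classes this was less clear, since leaving out 1 of several lane 6 libraries also undid the pass. With only library 4 of each group left on lane 7, a test without libraries 5 and 6 has little power and decides neither case. In the edgeR fit the log2 level on lane 7 over lane 6 was -0.47 (SE 0.18, adjusted p = 0.0853) beside 914 features called (12.3%). Without libraries 5 and 6 it was -0.11, beside 3 features called. With library totals it was -0.20, beside 1540 features called and a median of 0.27 over all features. The level passed in DESeq2 (-0.46, adjusted p = 0.0351) and, in edgeR, without Control 4 (-0.53, adjusted p = 0.0407) or without DEHP 4 (-0.54, adjusted p = 0.0417).

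Within a lane, 3 libraries of a group meet 3 of another and the smallest p that exact permutation can give is 0.1. On lane 7 the share of the 6 classes averaged 3.51% in DBP, 4.36% in DEHP and 4.23% in Mixture, against 4.49% in Control. On lane 6 it averaged 5.03% in DBP, 4.01% in DEHP and 4.59% in Mixture, against 5.42% in Control. Every exposed group therefore had a lower mean share than Control on both lanes, by 0.136 to 0.981 points on lane 7 and 0.389 to 1.41 points on lane 6. Under TMM, as given above, the fold change of DBP over Control was positive on lane 6. DEHP and Control libraries overlapped on lane 7 and did not overlap on lane 6 (exact p = 0.1).

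DBP and DEHP changed places between the lanes. On lane 7, DBP libraries had 3.93, 3.45 and 3.16% and DEHP libraries 4.85, 4.22 and 4.01%, with every DBP library below every DEHP library. On lane 6, DBP libraries had 4.22, 5.85 and 5.02% and DEHP libraries 4.11, 4.11 and 3.81%, with every DBP library above every DEHP library. The difference of DBP minus DEHP was -0.845 points on lane 7 and 1.02 on lane 6, a change of -1.87 points (lane 7 minus lane 6, exact permutation within lane, p = 0.005, the smallest that 400 arrangements can give, adjusted p = 0.03 over 6 pairs). This test was chosen after the values had been seen. The change kept its sign without any 1 library, from -2.27 to -1.46 points, but no longer passed without DBP 5 or 6 (adjusted p = 0.06) or without any 1 of the 6 DEHP libraries (0.06 to 0.12, exact permutation). In edgeR, under TMM, the same change between lanes was -1.05 on the log2 scale (SE 0.47, adjusted p = 0.996, unadjusted p = 0.0383, 0% of 7454 features called). The difference of DBP from Control changed by -0.75 between lanes on the log2 scale (edgeR SE 0.47, adjusted p = 0.797), beside 2 features called among 7454 (0.0268%), that of DEHP by 0.30 (SE 0.47, adjusted p = 1.00) and that of Mixture by -0.06 (SE 0.47, adjusted p = 0.989), beside 0 called (0%) for each. With library totals these changes were smaller for DBP against DEHP, at -0.64, and for DBP against Control, at -0.25, which was also -0.40 without DBP 2 under TMM. The other 5 pairs had exact adjusted p values of 0.33 to 0.535 for a change between lanes. Each lane holds different mice, so lane and mouse cannot be told apart.

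**Figure D5:**
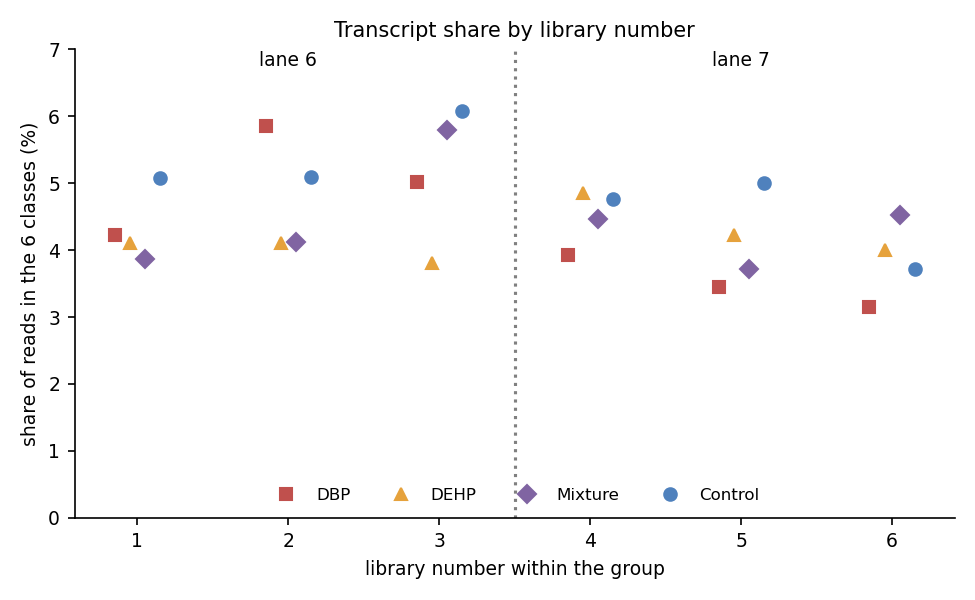
Share of the 6 classes on the transcript (y, from 0) by library number (x), with lane 7 right and lane 6 left of the dotted line and a symbol per group. DBP squares lie below the DEHP triangles at numbers 4 to 6 and above them at numbers 1 to 3.

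Other rRNA references held far fewer reads, such as 198405 over all libraries for mt-Rnr2. Of the other 357, 25 passed the filter on low counts, and edgeR called 0 in each direction in the 3 comparisons with Control, with 0, 1 and 1 at an unadjusted p under 0.05 for DBP, DEHP and Mixture. Their median log2 fold change was 0.26 for DBP, -0.04 for DEHP and -0.20 for Mixture, beside -0.01, -0.02 and -0.02 over all features. mt-Rnr2 averaged 592.2 ± 572.2 RPM in DBP, 657.7 ± 470.1 RPM in DEHP and 710.8 ± 820.4 RPM in Mixture, against 908.3 ± 822.6 RPM in Control libraries (SD, n = 6 each), a spread close to the mean in each group. The 5S reference n-R5s161 averaged 73.2 ± 10.6 RPM in DBP, 71.2 ± 24.6 RPM in DEHP and 64.4 ± 27.4 RPM in Mixture, against 69.7 ± 30.4 RPM in Control libraries.

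RNAs that act on the rRNA precursor were present at low levels. Of 17 listed, 14 were in the otherRNA tables. Snord3a, Snord3b-ps1 and Snord27 were not found there, so the results do not cover them. All 14 were tested in a fit of that class alone, with 0 called in each direction against Control (edgeR, 0% of 3732 features called). At an unadjusted p under 0.05 there were 1, 0 and 0 for DBP, DEHP and Mixture. Rmrp, the RNA of RNase MRP, averaged 170 ± 133.9 RPM in DBP, 167.3 ± 158.5 RPM in DEHP and 146.1 ± 138.2 RPM in Mixture, against 166.4 ± 163.5 RPM in Control libraries. Snord118, the U8 snoRNA that large-subunit rRNA maturation needs, averaged 72.6 ± 36.4, 70.9 ± 38.5 and 59 ± 21 RPM in DBP, DEHP and Mixture, against 60.5 ± 22.4 RPM in Control libraries. Snord17 averaged 61.4 ± 18.1, 65 ± 11.4 and 60.9 ± 9.75 RPM in DBP, DEHP and Mixture, against 68.8 ± 18.8 RPM in Control libraries. Snora73b averaged 37.8 ± 40.8, 42 ± 43 and 68.4 ± 96.4 RPM in the exposed groups in the same order, against 48 ± 65.4 RPM in Control libraries. Median log2 fold changes of the 14 were 0.02, 0.10 and -0.02 for DBP, DEHP and Mixture, beside 0.01, 0.00312 and 0.02 over all features of that class.

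Of 9 miRNA hairpins listed for overlap with rRNA sequence, 4 were in the tables, all 4 were tested and edgeR called 0, with 0 at an unadjusted p under 0.05 in each comparison with Control. A search of 1005 hairpins for runs of 18 or more bases shared with the transcript found only the entry of mmu-mir-3535. Overlap of these 4 with the transcript itself was thus not shown. mmu-mir-6240 varied most, with 5624 ± 5248 RPM in DBP, 4240 ± 2591 RPM in DEHP and 5667 ± 3117 RPM in Mixture, against 5655 ± 5712 RPM in Control libraries. mmu-mir-6236 averaged 1541 ± 520.4, 1511 ± 352.9 and 1685 ± 726.5 RPM in DBP, DEHP and Mixture, against 1734 ± 887.2 RPM in Control libraries. mmu-mir-712 and mmu-mir-714 averaged 324.6 and 154.9 RPM over all libraries. mmu-mir-3535, printed above for its run of 21 bases, averaged 5895 ± 2798 RPM in DBP, 6437 ± 1091 RPM in DEHP and 6307 ± 2044 RPM in Mixture, against 6412 ± 1947 RPM in Control libraries, with edgeR log2 fold changes of -0.10, -0.03 and -0.01 (adjusted p = 0.994, 0.999 and 1.00).

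Features with a pattern like that of the transcript came from several classes. Likeness was the lower of the Pearson correlations of log2 CPM on lane 6 and on lane 7, over 12 libraries each, among 1491 features with a mean of at least 10 CPM. The points share library depth, TMM factors and groups, so these values describe and carry no p. The 5 highest were piR-mmu-5630904 (0.84), the lncRNAs AC126937.2 (0.83) and 2310014F06Rik (0.79), and the circRNAs mmu_circ_0002069 from Smarcc2 (0.79) and mmu_circ_0011526 (0.78). Among the other classes the highest were mmu-miR-3473e (0.68), tRNA-Lys-TTT-2-2 (0.64) and the 5S reference n-R5s155 (0.60). The 3 lowest were the piRNAs piR-mmu-5603749 (-0.90), piR-mmu-10832396 (-0.90) and piR-mmu-10823453 (-0.88), whose values come from lane 7, with -0.35, -0.60 and -0.58 on lane 6. Several rested on a few libraries. Without the 2 libraries farthest from the median on lane 6, the lane 6 value of AC126937.2 was 0.27, against 0.83 with them, and that of tRNA-Lys-TTT-2-2 was 0.01. On RPM in place of TMM-scaled values the likeness was lower for each of the features named as high. On lanes 7 and 6, piR-mmu-5630904 stood at 0.69 and 0.61, the Smarcc2 circRNA at 0.33 and 0.62, mmu-miR-3473e at 0.36 and 0.30, tRNA-Lys-TTT-2-2 at 0.34 and 0.19, and n-R5s155 at 0.33 and 0.31.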

How the data were processed

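The authors deposited whole-number counts of reads per reference for each library and RNA class. Per the submitters' processing notes, cutadapt and STAR 2.7.6a were used and edgeR was named. Per the labels, classes were searched in turn, rRNA after miRNA, tRNA and piRNA, so reads that also match an earlier class are counted there. The sources used here do not give the build, annotation release, strand or handling of reads with several matches. The transcript, the lists and the naming rules were chosen with earlier results of these data known. The 6 classes were joined and fitted with edgeR 4.0.16 in R 4.3.3 (quasi-likelihood, TMM, filterByExpr, terms for group and lane, 7454 features), with Benjamini-Hochberg adjustment at 0.05. The otherRNA class was fitted apart. Scripts were tested on simulated data. Shares were tested by exact two-sided permutation within lane (400 arrangements, smallest p 0.005), with intervals by inversion of the test. Features named were the transcript, the 5 rRNA references with the largest shares, the most abundant listed RNAs and the likeness ranks. mmu-mir-3535 was added by sequence. Sequences came from GENCODE M21 and RefSeq. Sharing with piRNA, tRNA and circRNA references was not analysed here. Alternatives were DESeq2 1.42.0, limma voom 3.58.1, other scalings, no filter, and leaving out lanes or libraries.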

Additional observations from a re-analysis of the deposited data

Results flagged for a closer look

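In the Control group, library 6 stood apart with the lowest share of the rRNA class, 91.4%, at 0.645 of the group's range from its nearest neighbour, where 0.625 is the limit for 6 samples. In the DBP group, library 5 stood apart with the highest mitochondrial share of the rRNA class, 6.25%, at 0.653 of the range. These were 2 of 20 groups checked, and chance flags about 1 in 20. The difference of DBP minus DEHP in the share of the 6 classes changed by -1.87 percentage points between lanes 7 and 6 (exact permutation adjusted p = 0.03), a test chosen after the values had been seen.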

How the results depend on the processing

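No group comparison of the transcript's level or shares passed 0.05 under any alternative, so reversals are changes of sign of small differences, and the cause was not tested. Of the log2 levels, DBP against Control was 0.024 without libraries 5 and 6 and 0.18 without lane 7. DBP against DEHP was -0.37 and Mixture against DEHP -0.038 without lane 6. Mixture against DBP was 0.061 with library totals, 0.011 without a filter, 0.0067 in limma voom and 0.33 without lane 6. The change of Mixture against Control between lanes was 0.15 with library totals. With no filter, 8 features were called for DBP against Control, 2 for Mixture against DBP and 1 for Mixture against DEHP.

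In percentage points, the share of the 6 classes was -0.845 for DBP against DEHP and -0.124 for Mixture against DEHP without lane 6, and -0.434 for Mixture against DBP without lane 7. With mitochondrial rRNA left out of the total, the share of the rRNA class was -0.249, -0.0952 and -0.0562 for DBP, DEHP and Mixture against Control, 0.193 for Mixture against DBP and 0.039 for Mixture against DEHP. Without libraries 5 and 6 it was -0.567 for DBP and -0.484 for DEHP against Control, 0.963 for Mixture against DBP and 0.88 for Mixture against DEHP. These differences weight both lanes equally, although lane 7 then holds a single library of each group. They are therefore not differences of plain group means. For DBP against Control, lane 6 alone gave 0.799. The negative sign came from the remaining lane 7 libraries, at 97.03% in DBP and 98.96% in Control. Without lane 6 it was -0.404 for DBP and -0.765 for Mixture against Control. Without lane 7 it was -0.357 for DEHP against Control, 1.16 for DBP against DEHP, 0.111 for Mixture against DBP and 1.27 for Mixture against DEHP.

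The level on lane 7 over lane 6 was -0.46 in DESeq2, where it passed (adjusted p = 0.0351), and -0.20 with library totals. Without libraries 5 and 6 the lane differences in shares were -0.258 for the 6 classes and -0.136 for the rRNA class. Only library 4 of each group is then left on lane 7, too few for a test to decide.

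Leaving out 1 library at a time gave these ranges. Log2 levels ran from -0.37 to -0.030, -0.45 to -0.17 and -0.29 to -0.071 for DBP, DEHP and Mixture against Control, from -0.077 to 0.30 for DBP against DEHP, from -0.16 to 0.19 for Mixture against DBP, from -0.54 to -0.37 for lane 7 over lane 6 (past the threshold without Control 4 or DEHP 4) and from -0.29 to 0.17 for the change of Mixture between lanes. Features called between lanes ran from 574 without Control 6 to 1425 without Control 4. Shares of the 6 classes ran from -0.839 to -0.360 points for Mixture against Control, from -0.117 to 0.289 points for DBP against DEHP, from -0.155 to 0.348 for Mixture against DBP and from -0.0667 to 0.412 for Mixture against DEHP. The DBP against DEHP change between lanes ran from -2.27 to -1.46 and the lane difference from -0.713 to -0.463. Shares of the rRNA class ran from -0.853 to 1.04, -0.655 to 1.24 and -0.978 to 1.03 for DBP, DEHP and Mixture against Control, from -0.658 to 0.504 for DBP against DEHP, from -1.13 to 0.83 for Mixture against DBP and from -1.33 to 0.632 for Mixture against DEHP.

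Replicate numbers were not used as pairs, since the labels give them no meaning and the correlation of same-numbered libraries ran from -0.252 to 0.638. It was 0.330 to 0.635 for number 5 and 0.350 to 0.638 for number 6, and 12 of 24 libraries correlated best with their own number. Group means were removed before correlating but lane was not, and libraries of the same number share a lane. Structure by number and by lane thus cannot be told apart in these correlations. With the replicate number as a block, the log2 levels of DBP, DEHP and Mixture against Control were -0.15, -0.29 and -0.17 and 0 features were called, and shares in that pairing gave adjusted p values of 0.625 and 0.969 (exact sign exchange). Counting error was at most 0.177% for the transcript. References with few reads are measured less well, and no value was tested against depth.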
